A study of Amaranthus powellii with 13 samples.

Results

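The gene models described here separated 2 plants of green pigweed from the other 10 by the presence or absence of reads. They were chosen from the counts themselves, as CPM (counts of a gene model scaled to a fixed library size) after TMM normalization, which sets libraries against each other by the bulk of their genes. A gene model was a member if it was above 2 CPM in plant S13 of group ST and plant S116 of group SU and below 0.1 CPM in each of the other 10 plants, or the reverse. Of 23820 gene models listed and 20245 with any count, 43 (0.212% of those with a count) were high only in the 2 plants and 18 (0.0889%) were low only in them, 61 in all. Because the values of all 12 plants chose these members, their levels in the 2 plants against the other 10 are given as a description, with no test.

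Leaf RNA came from 12 plants of *Amaranthus powellii*, sampled one by one, with 3 plants in each of 4 groups. RT and RU came from population 501, which is resistant to MCPA and was raised from open-pollinated survivors of the herbicide, and ST and SU came from the susceptible population 511, which was collected as seed from plants not treated with the herbicide. RT and ST were sprayed with MCPA at 1225 g a.e. per ha, and RU and SU were not sprayed. The fourth fully expanded leaf was cut 6 h after application in all groups, and the authors selected plants that represented their group once survival was known. The 2 plants that define the set thus belong to population 511, and one (ST S13) was sprayed and the other (SU S116) was not. Plant labels repeat between groups, and RU S13 is a different plant from ST S13.

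MCPA is a synthetic auxin, a herbicide that acts through the auxin receptors of broadleaf plants and sets off a large change in transcription. Plants of outcrossing or mixed populations can differ by whole genes, which are present in the genome of some individuals and absent from others, a form of diversity known as presence-absence variation. It is common in plant genomes, often among members of clustered gene families. In RNA such a gene appears as a transcript with reads in some plants and none in others, and a gene that is present and silent, or so diverged that its reads no longer align, looks the same. These 3 states cannot be told apart with the counts used here, and neither can fewer cells of a type and less RNA per cell. The reads were aligned to the genome of a related species, smooth pigweed (*A. hybridus*), so a member is a gene model of that genome to which reads of some plants were assigned. The files pair the identifiers with no gene names, so what the members encode is not described.

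Total counts were 22629698 to 29999982 per library, and a single count was worth 0.0312 to 0.0458 CPM. The 2 plants had 13505 and 13413 gene models above 2 CPM, within the range of 13334 to 13530 over all 12. The TMM factor of ST S13 was 1.29, the highest of the 12, and that of SU S116 was 1.09. ST S16, outside the pair, had 1.21. A wider class of gene models was also set by the values of these 2 libraries. In 695 gene models, called the wide class below, both plants lay outside the range of the other 10, the mean of the 2 differed from the mean of the 10 by more than 4-fold (on CPM + 0.1), and some library was above 2 CPM. This class was defined after the values were seen and contains all 61 members. No other pair of libraries was counted in this way, so nothing is read from its size.

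The 43 members high in the 2 plants were close to empty in the other 10. No count was recorded in any of the 10 libraries for 31 of them, and the other 12 had 1 to 3 counts in all. Over all 43 members the 10 libraries held 22 counts, against 19581 in ST S13 and 13845 in SU S116. The largest share of the 22 fell on RT S14, with 7 counts, and RT S110 and RU S13 had none. Levels ran from 2.04 to 174 CPM in ST S13 (median 5.43) and from 2.06 to 54.5 CPM in SU S116 (median 5.61). For comparison, both plants lay above all the other 10, at any level, in 9.44% of the gene models with a count, but the rule used this contrast and nothing is read from the share.

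Ah.09g233730 had the highest geometric mean of the 2 plants' CPM among these members. It had 92.5 CPM in ST S13 and 54.5 CPM in SU S116, from 2811 and 1748 counts, and no count in any other plant. With 3 counts over the 10 libraries as the floor (0.0118 CPM), its mean was at least 6242-fold higher in the 2 plants. Ah.06g186300 had nearly the same level in both, 36.1 CPM in ST S13 and 36.3 CPM in SU S116, and 2 counts in RT S14 were the only ones elsewhere. Ah.16g106180 was likewise even, at 31.4 and 31.0 CPM, with no count in the other 10, which is at least 2650-fold higher. Both were thus as high in the unsprayed as in the sprayed plant.

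Ah.12g061080 had 32.9 CPM in ST S13 and 25.9 CPM in SU S116. Ah.12g059890 had 19.6 CPM in ST S13 and 19.5 CPM in SU S116. Ah.10g030040 had 19.0 and 16.1 CPM in the same order. All 3 were without a count in the other 10 plants, and the bounds on the fold were 2495, 1661 and 1491. Ah.02g125070 differed more between the plants, with 9.58 CPM in ST S13 and 24.4 CPM in SU S116, and RU S18 had 2 counts of it. In all, 11 of the 43 members were above 10 CPM in both plants, and Ah.02g125070 was not among them.

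Ah.13g066720 had the most unequal levels. It was at 174 CPM in ST S13 (5290 counts) and at 10.8 CPM in SU S116 (348 counts), 16.04-fold higher in the sprayed plant, and RT S14 had 1 count. The next most unequal was Ah.02g125810, with 3.26 CPM in ST S13 and 17.5 CPM in SU S116, 5.36-fold higher in the unsprayed plant. Of the 8 members more than 2-fold apart, 5 were higher in ST S13, namely Ah.13g066720, Ah.14g080050 (23.8 and 5.77 CPM), Ah.04g149490 (14.3 and 3.93 CPM), Ah.02g121940 (5.40 and 2.37 CPM) and Ah.03g148530 (10.96 and 5.33 CPM). The other 3, Ah.02g125810, Ah.02g125070 and Ah.06g186320 (2.93 and 5.95 CPM), were higher in SU S116. With 1 sprayed and 1 unsprayed plant, an effect of MCPA and a difference between plants cannot be told apart.

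The remaining 35 members, 81.4% of the 43, were within 2-fold between the 2 plants. Of the 12704 other gene models above 2 CPM in both plants, 75.7% were within 2-fold. The median absolute log2 ratio of ST S13 to SU S116 was 0.39 over the members and 0.50 over those other gene models. The ratios had no common direction, since 22 members were higher in ST S13 and 21 in SU S116 and the median log2 ratio was 0.0024. Across the 43 members the log2 CPM of the 2 plants correlated at 0.74 (Pearson) and 0.73 (Spearman). These describe members that share the same pair of libraries and were cut at the same level, so no p is given.

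**Figure D1:**
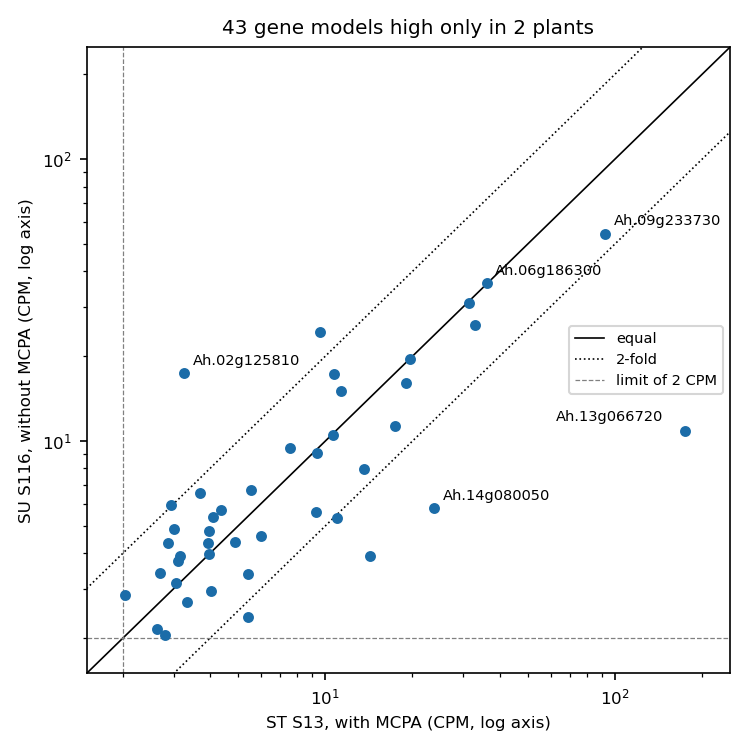
Level of the 43 gene models high only in the 2 plants, in ST S13 (x axis, CPM, log scale) against SU S116 (y axis, CPM, log scale). Each point is a gene model, the solid line marks equal levels, dotted lines 2-fold differences and dashed lines the limit of 2 CPM. Most points, 35 of 43, lie between the dotted lines, and Ah.13g066720 lies farthest from equality.

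Low counts carried most of these members. The median of their mean level in the 2 plants was 5.30 CPM, against 24.2 CPM for the other gene models above 2 CPM in both. CPM is not corrected for the length of the gene model, so this compares the reads behind the values and not the expression of genes. Just inside the limit of 2 CPM were Ah.02g119660, at 2.04 CPM in its lower plant, and Ah.10g027070, at 2.06 CPM. Just outside were Ah.01g022490, at 1.94 CPM, and Ah.09g223870, at 1.81 CPM. The limit of 0.1 CPM for the other 10 plants let in Ah.06g186300 and Ah.11g040860, each at 0.0916 CPM in RT S14. It left out Ah.03g139940, at 0.109 CPM in ST S112, and Ah.12g061570, at 0.121 CPM in RU S13. Ah.12g061570 had 21.3 CPM in ST S13 and 77.0 CPM in SU S116, so 3 counts in 1 library kept out a gene model with more reads in SU S116 than any member.

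The 18 members low in the 2 plants were above 2 CPM in each of the other 10, as the rule requires. Their mean level over the 10 was 3.04 to 10.5 CPM (median 4.56), and single values ran from 2.06 to 16.8 CPM. In the 2 plants Ah.01g015350 and Ah.09g225430 had no count, and the other 16 had at most 3 counts in either. The highest of the 10 plants was 1.32 to 6.20 times the lowest (median 2.34). Both plants lay below all the other 10 in 7.79% of the gene models with a count, a share from which nothing is read for the same reason. The number of low members depended on ST S13, and without that plant 37 gene models met the rule, the 18 among them, and without SU S116 24 did. The 12046 other gene models above 2 CPM in all 10 had a median mean of 25.1 CPM, so these members too were among those with fewer reads.

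Ah.10g024980 had the highest mean of the 18. Over the 10 plants its level was 6.57 to 16.4 CPM with a median of 10.3 CPM, while ST S13 had 3 counts (0.0987 CPM) and SU S116 none. Ah.13g071150 ran from 6.51 to 12.6 CPM (median 9.93) and had 2 counts in ST S13 and none in SU S116. Ah.04g159530 was the most even, from 7.17 to 9.47 CPM (median 8.20), with 3 counts in ST S13 and none in SU S116. The gap between the 2 plants and the lowest of the other 10 was wide in all 3.

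Ah.15g098390 ran from 4.39 to 14.97 CPM (median 7.09), with RU S13 the highest, and had 1 and 2 counts in the 2 plants. Ah.13g074960 ran from 2.21 to 9.97 CPM (median 8.39), and its 2 lowest values were those of the sprayed plants ST S112 (2.21 CPM) and ST S16 (5.12 CPM). Ah.01g015350 spread the most, from 2.72 to 16.8 CPM (median 5.46). Its high plants were RT S11 (16.8 CPM) and RU S118 (15.8 CPM), and the other 8 were at 7.15 CPM or less. With 3 counts over the 2 libraries as the floor (0.0480 CPM), Ah.01g015350 was at least 151-fold lower in the 2 plants.

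Ah.01g008770 ran from 4.14 to 6.90 CPM (median 5.26), with 3 counts in each of the 2 plants. Ah.04g152650 ran from 2.31 to 8.60 CPM (median 6.19), also with 3 counts in each. Its 4 plants of population 511 were at 6.35 to 8.60 CPM and overlapped the 6 of population 501, at 2.31 to 7.87 CPM. The other 10 members had means of 3.04 to 4.69 CPM, and of these Ah.09g225430, without a count in the 2 plants, was at least 86.1-fold lower there. In ST S13 Ah.01g008770 and Ah.04g152650 were at 0.0987 CPM, which is 3 counts there and the most that the limit of 0.1 CPM allowed. Ah.14g082540 and Ah.12g061840 fell just outside, at 0.132 CPM in ST S13. On the other limit Ah.16g106190 and Ah.09g225430 were just inside, with lowest values of 2.06 and 2.07 CPM, and Ah.16g110390 (1.94 CPM) and Ah.05g171230 (1.92 CPM) just outside.

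**Figure D2:**
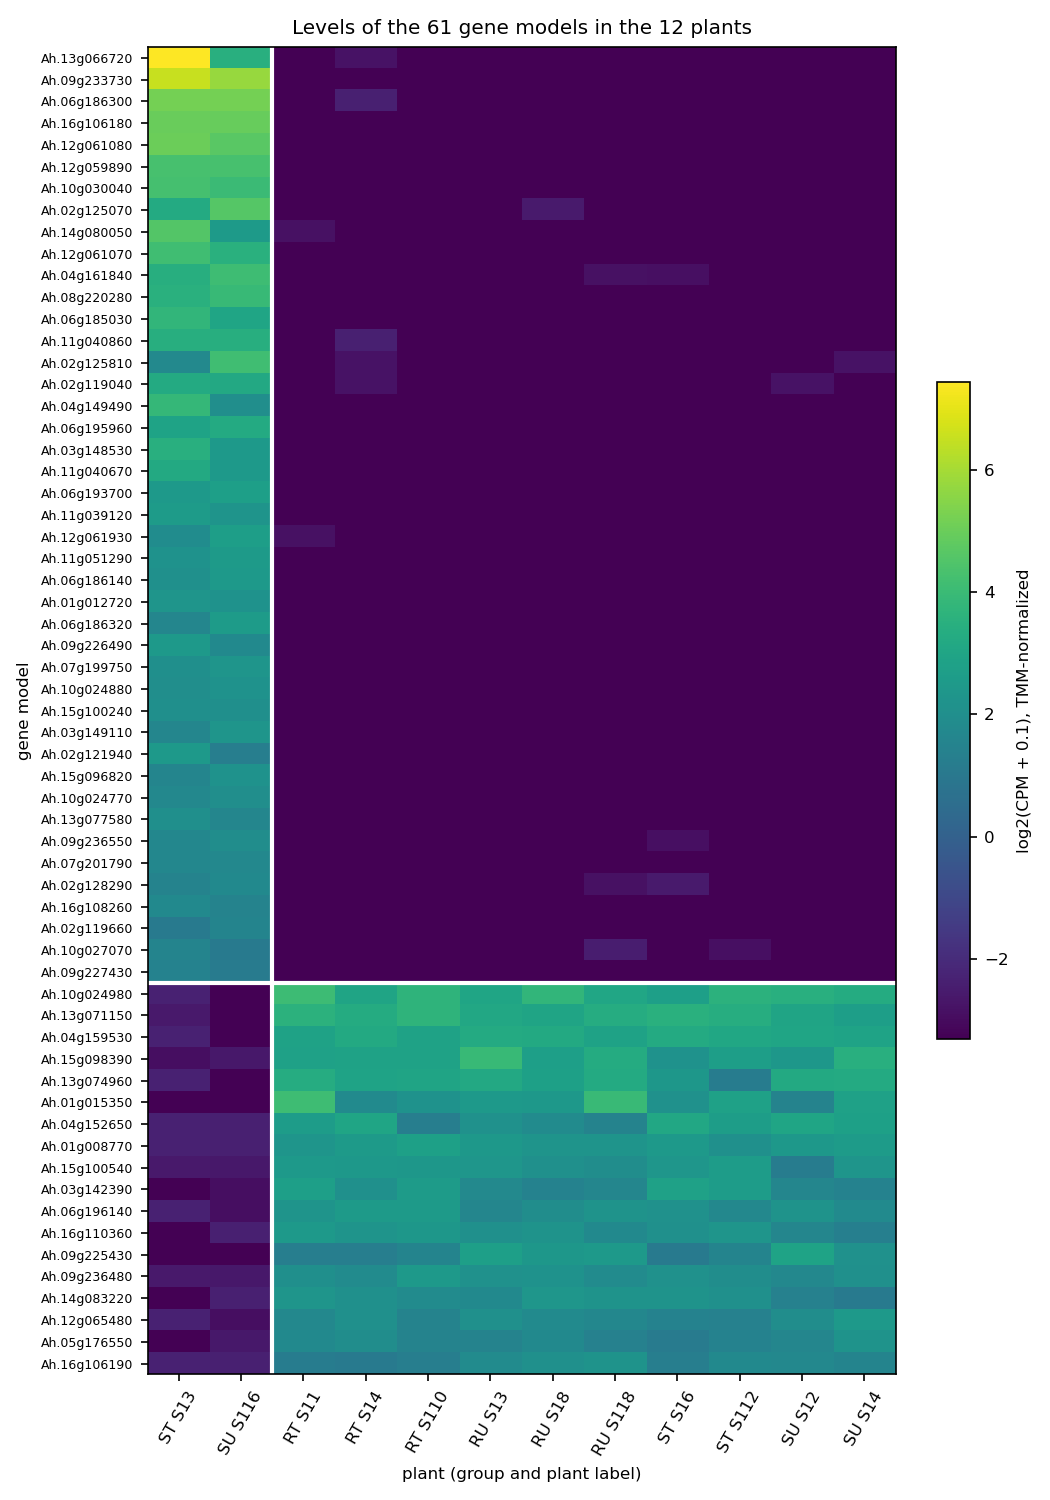
Level of each of the 61 gene models (rows, ordered by mean level) in the 12 plants (columns), as log2(CPM + 0.1) by colour. The 43 upper rows are high in ST S13 and SU S116 and carry at most 3 counts over the other 10 plants, and the 18 lower rows show the reverse, with at most 3 counts in either plant.

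Intermediate patterns, in which only some of the other 10 plants differed from the pair, were also found. Among gene models above 2 CPM in both plants, 43 were below 0.1 CPM in exactly 1 of the other 10 and 17 in exactly 2. From 3 to 9 plants the numbers lay between 5 and 13, and at all 10 they rose to the 43 members. Among gene models below 0.1 CPM in both plants, 37 were above 2 CPM in exactly 1 of the other 10, 25 in exactly 2, and 9 to 16 in 3 to 9, against the 18 members at all 10. These counts come from the values that chose the members, and nothing is read from them.

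By the chromosome number in the identifier, members lay on all 16 numbered chromosomes of the smooth pigweed genome. Chromosome 6 held 7 members, with Ah.06g185030, Ah.06g186140, Ah.06g186300, Ah.06g186320, Ah.06g193700 and Ah.06g195960 high in the 2 plants and Ah.06g196140 low. Chromosome 2 held 6, all high, namely Ah.02g119040, Ah.02g119660, Ah.02g121940, Ah.02g125070, Ah.02g125810 and Ah.02g128290. Chromosome 9 held 6 as well, of which Ah.09g226490, Ah.09g227430, Ah.09g233730 and Ah.09g236550 were high and Ah.09g225430 and Ah.09g236480 low. These 3 chromosomes together carried 19 of the 61. Members made up 0.688%, 0.426% and 0.677% of the gene models above 2 CPM on chromosomes 6, 2 and 9.

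Chromosome 10 held Ah.10g024770, Ah.10g024880, Ah.10g027070 and Ah.10g030040 (high) and Ah.10g024980 (low). Chromosome 11 held 4 high members, Ah.11g039120, Ah.11g040670, Ah.11g040860 and Ah.11g051290. Chromosome 12 held Ah.12g059890, Ah.12g061070, Ah.12g061080 and Ah.12g061930 (high) and Ah.12g065480 (low). Chromosomes 13, 15 and 16 held 4 each, 2 high and 2 low. The high ones were Ah.13g066720, Ah.13g077580, Ah.15g096820, Ah.15g100240, Ah.16g106180 and Ah.16g108260, and the low ones were Ah.13g071150, Ah.13g074960, Ah.15g098390, Ah.15g100540, Ah.16g106190 and Ah.16g110360.

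Chromosome 4 held Ah.04g149490 and Ah.04g161840 (high) with Ah.04g152650 and Ah.04g159530 (low). Chromosome 1 held Ah.01g012720 (high), Ah.01g008770 and Ah.01g015350 (low), and chromosome 3 held Ah.03g148530 and Ah.03g149110 (high) and Ah.03g142390 (low). Chromosome 7 held Ah.07g199750 and Ah.07g201790, both high, and chromosome 14 held Ah.14g080050 (high) and Ah.14g083220 (low). A single member lay on chromosome 5, Ah.05g176550 (low), and on chromosome 8, Ah.08g220280 (high). Members made up 0.103% of the gene models above 2 CPM on chromosomes 5 and 8 and 0.717% on chromosome 16, and the 173 gene models with no chromosome number held none.

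The share of members toward the ends of the identifier order is given as a description, with no test. Of the 61, 18 (29.5%) lay in the first or last 10% of the identifiers of their chromosome, 12 of the 43 high and 6 of the 18 low. Of all gene models above 2 CPM in some library 20.8% lay there, and of the wide class outside the members 24.9%. Of the 6 low members there, 5 lay in the last 10%. Of all gene models above 2 CPM in some library, 1543 lay in the first 10% and 1605 in the last. Place in the order was used because base positions were not, and identifiers are spaced by 10 regardless of the distance between genes.

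**Figure D3:**
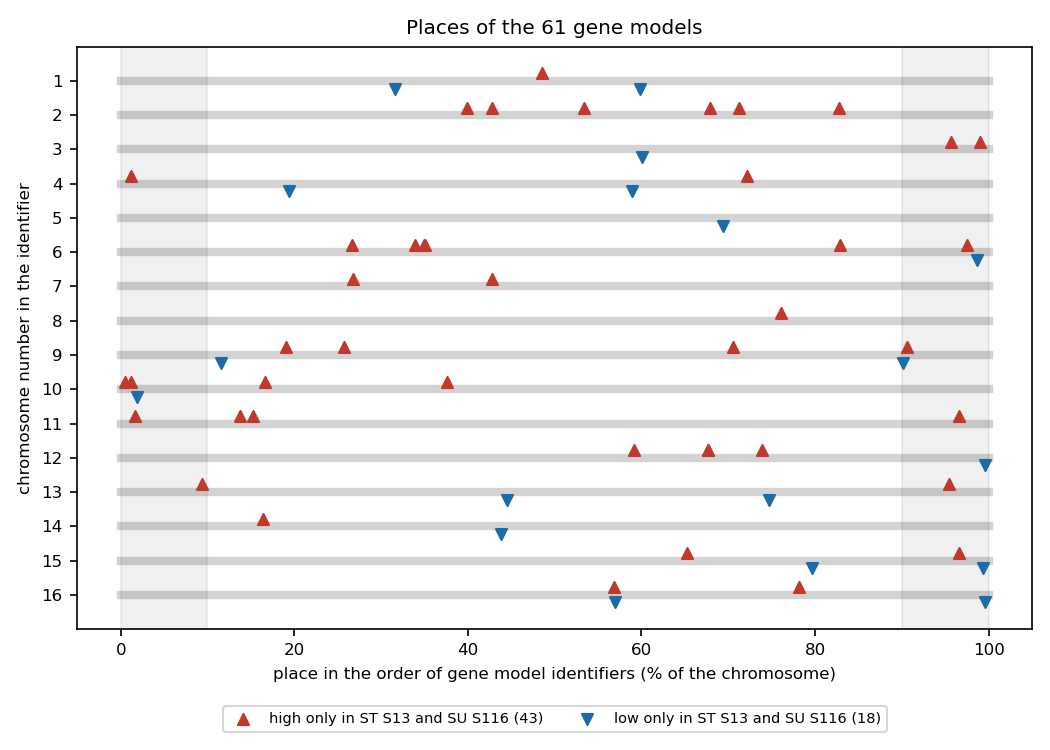
Place of the 61 gene models in the order of identifiers along each chromosome (x axis, % of the identifiers of the chromosome) by chromosome number (y axis). Upward triangles are the 43 models high only in ST S13 and SU S116, downward triangles the 18 low only in them, and grey bands mark the outer 10% at both ends, which hold 18 of the 61.

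Adjacent identifiers gave 1 pair of opposite members. Ah.16g106180, with 31.4 CPM in ST S13 and 31.0 CPM in SU S116 and no count elsewhere, is followed by Ah.16g106190. The second had 3 counts in each of the 2 plants, and 2.06 to 4.52 CPM (median 2.97) in the other 10. The rule itself sets their opposite states in all 12 plants, so nothing is read from that match. The gene model on the other side, Ah.16g106170, followed the second one in 11 of the plants, at 0.165 and 0.187 CPM in ST S13 and SU S116 and a mean of 9.41 CPM over the other 10. The exception was RT S14, at 0.137 CPM, which was low in Ah.16g106170 and had no count of Ah.16g106180. The 2 gene models before these, Ah.16g106160 and Ah.16g106150, were in all 12 plants, and the 4 after had no count in any.

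Adjacent members of the same direction also formed 1 pair. Ah.12g061070 had 17.5 CPM in ST S13 and 11.3 CPM in SU S116, and Ah.12g061080 had 32.9 and 25.9 CPM, both with no count in the other 10. They are followed by Ah.12g061090, which had no count in the 2 plants and a mean of 0.244 CPM in the other 10, the reverse pattern at a level too low for the rule. Ah.06g186300 and Ah.06g186320, both high, are 2 places apart, and Ah.06g186310 between them had 1 count in ST S13 and none in the other 11 plants. No pair of low members was adjacent. No other members stood at adjacent identifiers, and no count for sets of other gene models was made for comparison.

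**Figure D4:**
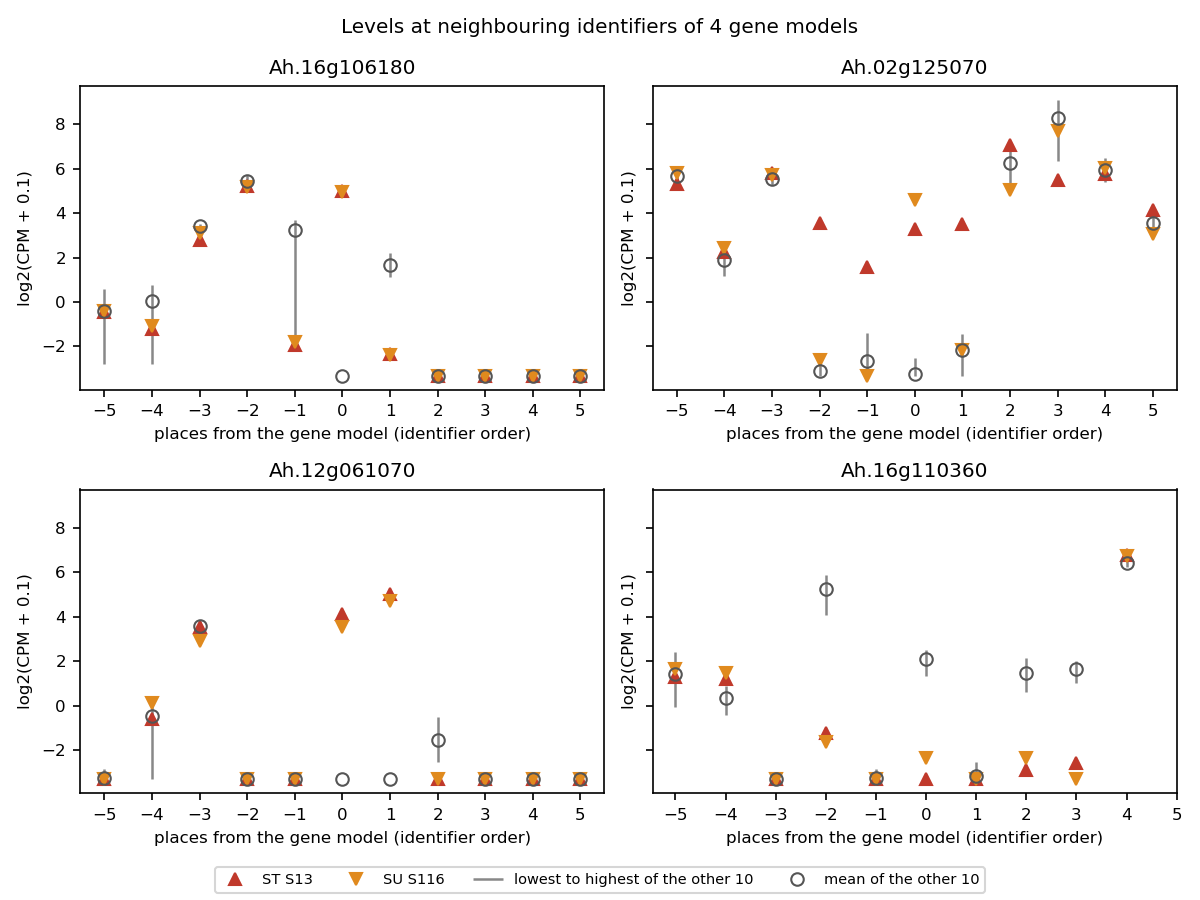
Level at 5 identifiers to either side of 4 gene models, as log2(CPM + 0.1) (y axis) by places from the gene model (x axis, identifier order). Triangles are ST S13 (upward) and SU S116 (downward), circles the mean of the other 10 plants and grey lines their lowest to highest value. Ah.16g106180 (31.4 and 31.0 CPM) sits between gene models that are low in both plants, Ah.02g125070 between gene models raised in ST S13 alone, Ah.12g061070 beside a second high member, and Ah.16g110360 among other low gene models near the end of its chromosome. These 4 were picked after their values were seen.

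Some members had non-members of like pattern beside them. Ah.02g125810 is followed by Ah.02g125820, at 1.65 CPM in ST S13 and 8.92 CPM in SU S116, and by Ah.02g125830, at 0.428 and 0.904 CPM. Neither had a count in the other 10, and each was higher in SU S116, as Ah.02g125810 was. Ah.10g027070 begins a run of 3, in which Ah.10g027080 had 3.88 and 2.46 CPM and Ah.10g027090 had 2.93 and 1.87 CPM in the 2 plants, against means of 0.116 and 0.201 CPM in the other 10. It was the only member in a run of 3 or more wide-class gene models, of which there were 6. Ah.12g061930 is followed by Ah.12g061940, with a mean of 10.4 CPM in the 2 plants and 0.397 CPM in the others. Ah.11g040870, after Ah.11g040860, had 1.38 and 1.75 CPM in the 2 plants and no count elsewhere.

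Near Ah.16g110360, low in the 2 plants, several other gene models were also low. The identifiers directly before and after it were not in the wide class, so the low gene models were not continuous. Ah.16g110340 had 0.329 and 0.218 CPM in ST S13 and SU S116 and a mean of 37.4 CPM over the other 10. Ah.16g110360 itself had no count and 3 counts in the 2 plants and 2.40 to 5.52 CPM (median 4.35) in the others. Ah.16g110380 and Ah.16g110390 had means of 0.0632 and 0.0329 CPM in the 2 plants, against 2.64 and 3.05 CPM. The next gene model, Ah.16g110400, was present in all, at 111 and 107 CPM in the 2 plants and a mean of 84.5 CPM in the others.

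Opposite patterns close to members included gene models outside the rule. Ah.03g149110 (2.99 and 4.86 CPM, no count in the other 10) follows Ah.03g149100. The latter had 1.41 and 3.93 CPM in ST S13 and SU S116 and a mean of 13.9 CPM in the others. Of these others, RU S118 (4.60 CPM) and ST S112 (4.86 CPM) were close to SU S116. Ah.10g024980, the low member with the highest mean, precedes Ah.10g024990, at 1.02 and 1.43 CPM in the 2 plants and a mean of 0.0127 CPM in the others. Around Ah.09g236550 the directions alternated, since Ah.09g236540 and Ah.09g236600 were higher in the 2 plants (means of 19.7 and 14.7 CPM against 1.42 and 1.39 CPM) and Ah.09g236590 was lower (0.0805 against 2.43 CPM). On a wider scale, Ah.09g236480 (low) and Ah.09g236550 (high) were 7 places apart, Ah.10g024880 (high) and Ah.10g024980 (low) 10, Ah.06g195960 (high) and Ah.06g196140 (low) 18, and Ah.15g100240 (high) and Ah.15g100540 (low) 30.

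The 2 plants did not always share a neighbourhood. Ah.02g125070 was high in both, at 9.58 and 24.4 CPM, but the gene models around it were raised in ST S13 only. Ah.02g125050 had 11.8 CPM in ST S13 and 0.0624 CPM in SU S116, Ah.02g125060 had 2.86 CPM and no count, and Ah.02g125080 had 11.4 and 0.125 CPM. Their means over the other 10 were 0.0152, 0.0601 and 0.12 CPM. In these 3 SU S116 thus lay with the other 10 plants, and in Ah.02g125070 it did not. Beside Ah.12g065480, a low member, Ah.12g065490 had no count in either plant and was patchy among the others, at 20.6 CPM in RT S110, 13.3 CPM in RU S13, 6.42 CPM in RU S118 and at most 1 count in the other 7.

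In windows of 5 identifiers to either side, 29 of the 43 high members and 13 of the 18 low members had no wide-class gene model. A wide-class gene model of the same direction stood within the window of 9 high and 4 low members, and one of the opposite direction within that of 7 high and 1 low. The same windows around all gene models were not counted, so nothing is read from these numbers. At the very next identifier the same direction was met by 6 high members and no low one, and the opposite direction by 2 high and 1 low. Over all identifiers 1.32% were wide-class high and 1.6% wide-class low. Of the 85 gene models next to high members 7.06% were wide-class high and 2.35% low, and of the 36 next to low members 2.78% were high and none low. These neighbours include members themselves, namely Ah.12g061070 and Ah.12g061080 beside each other and Ah.16g106180 beside Ah.16g106190. The wide class was set by the same values that chose the members, so nothing is read from these shares. Gene models without a count in any library made up 28.2% of those next to high members and 36.1% of those next to low members, against 15% of all. The neighbours of members were thus more often without a count than gene models at large, a description with no test.

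The wide class as a whole, members included, also paired in both directions. Its 695 gene models formed 69 adjacent pairs, of which 50 ran the same way and 19 opposite ways. Of its 60 runs of 2 or more, the longest was of 5, from Ah.13g074040 to Ah.13g074080, with the first 3 lower and the last 2 higher in the 2 plants. That run holds no member, and among the 6 runs of 3 or more only the one that begins with Ah.10g027070 holds one.

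Whether members respond to MCPA or differ between the populations could be asked only of the 18 low members in the other 10 plants, which leaves 2 plants each in ST and SU. The 43 high members had too few counts there. Over the 10 libraries 16398 gene models were tested with edgeR's quasi-likelihood test, all 18 low members among them. The rule asked for more than 2 CPM in each of the 10 plants, which limits how far a low member can differ among them. A call needed both limits of the study, 0.05 for the adjusted p and 2 for the absolute log2 fold change.

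Between sprayed and unsprayed plants of population 501 (RT and RU), 6.62% of the gene models tested were called, and none of the 18 members by edgeR or by DESeq2. At an unadjusted p under 0.05 edgeR gave 4 members. The share of all gene models at that unadjusted limit was not counted in any contrast, so nothing is read from such numbers. Without the fold limit 44.8% passed (22.7% higher and 22.1% lower after MCPA), and 3 of the members, 1 higher and 2 lower. Ah.03g142390 had 6.67, 4.17 and 5.88 CPM in RT S11, S14 and S110 and 3.27, 2.62 and 2.97 CPM in RU S13, S18 and S118. It rose by 0.92 on the log2 scale (SE 0.21, edgeR adjusted p = 0.00679). SE is a standard error computed back from the fold change and the F statistic of edgeR's test. Every sprayed plant was above every unsprayed one. The share of all gene models that separated the groups fully was not counted, so nothing is read from the separation.

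Ah.09g225430 had 2.30, 2.33 and 2.82 CPM in RT and 6.70, 5.16 and 5.47 CPM in RU, in the same order of plants. Its log2 fold change was -1.21 (SE 0.25, edgeR adjusted p = 0.00427). Ah.16g106190, the low partner of Ah.16g106180, had 2.22, 2.06 and 2.34 CPM in RT and 3.51, 4.14 and 4.52 CPM in RU, and its log2 fold change was -0.87 (SE 0.22, edgeR adjusted p = 0.00959). In both, all RT plants were below all RU plants, and again nothing is read from the separation. The median absolute log2 fold change over the 18 members was 0.30, against 0.49 over all gene models tested. The 18 were among the gene models with fewer reads, and no set of equal read number was compared, so nothing is read from this difference.

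In population 511 (ST and SU), 4.08% of the gene models tested were called and again none of the members by edgeR or DESeq2. At an unadjusted p under 0.05 edgeR gave 7 members, again without a share over all gene models to set beside them. Without the fold limit 22.9% passed (11.6% higher and 11.3% lower after MCPA), and 6 members, 4 higher and 2 lower. Ah.03g142390 had 7.07 and 6.06 CPM in ST S16 and S112 and 2.93 and 2.67 CPM in SU S12 and S14, a difference of 1.23 on the log2 scale (SE 0.26, edgeR adjusted p = 0.0100). Ah.09g225430 had 2.07 and 2.79 CPM in ST and 7.47 and 4.21 CPM in SU, a difference of -1.26 on the log2 scale (SE 0.31, edgeR adjusted p = 0.0193). These 2 members moved the same way in both populations. The contrasts share no plants but come from 1 fit of the 10 libraries. How many of all gene models passed both in the same direction was not counted, so nothing is read from the match.

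Ah.13g074960 fell, from 9.09 and 9.50 CPM in SU to 5.12 and 2.21 CPM in ST, with a log2 fold change of -1.34 (SE 0.35, edgeR adjusted p = 0.0243). The 3 others were higher in ST than in SU. Ah.13g071150 had 11.4 and 10.3 CPM against 7.69 and 6.51 CPM (log2 fold change 0.62, edgeR adjusted p = 0.0418). Ah.14g083220 had 4.50 and 4.14 CPM against 2.59 and 2.08 CPM (log2 fold change 0.89, edgeR adjusted p = 0.0448), and Ah.16g110360 had 4.10 and 4.86 CPM against 2.93 and 2.40 CPM (log2 fold change 0.75, edgeR adjusted p = 0.0485). With 2 plants a side these calls depended on single plants. Without SU S12 all 6 were lost (adjusted p from edgeR 0.0542 to 0.156). The log2 fold changes without it were 1.06 for Ah.14g083220, 0.91 for Ah.16g110360, 0.75 for Ah.13g071150, 1.31 for Ah.03g142390 and -1.36 for Ah.13g074960, none smaller in size than with it, and -0.78 for Ah.09g225430, which was smaller. Without SU S14 all were lost but Ah.09g225430 (0.0667 to 0.220). Without ST S16 all but Ah.03g142390 and Ah.13g074960 were lost (0.0744 to 0.143), and without ST S112 all but Ah.03g142390 and Ah.09g225430 (0.0618 to 0.165). Without ST S16 the log2 fold change of Ah.13g074960 was -2.06 (adjusted p = 0.00326), which passed the fold limit. A group left with 1 plant is assumed to vary like the others. The 3 calls in population 501 held without any single plant, and in a fit of all 12 libraries all 9 were lost (adjusted p from edgeR 0.510 to 0.781). Their log2 fold changes in that fit were -1.32 to 1.23, against -1.34 to 1.23 in the 10 libraries, and ST S13 and SU S116, near 0 by the rule, are part of its spread. The median absolute log2 fold change of the 18 was 0.59, against 0.40 over all gene models. Again the 18 had fewer reads and no set of equal read number was compared, so nothing is read from this difference.

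**Figure D5:**
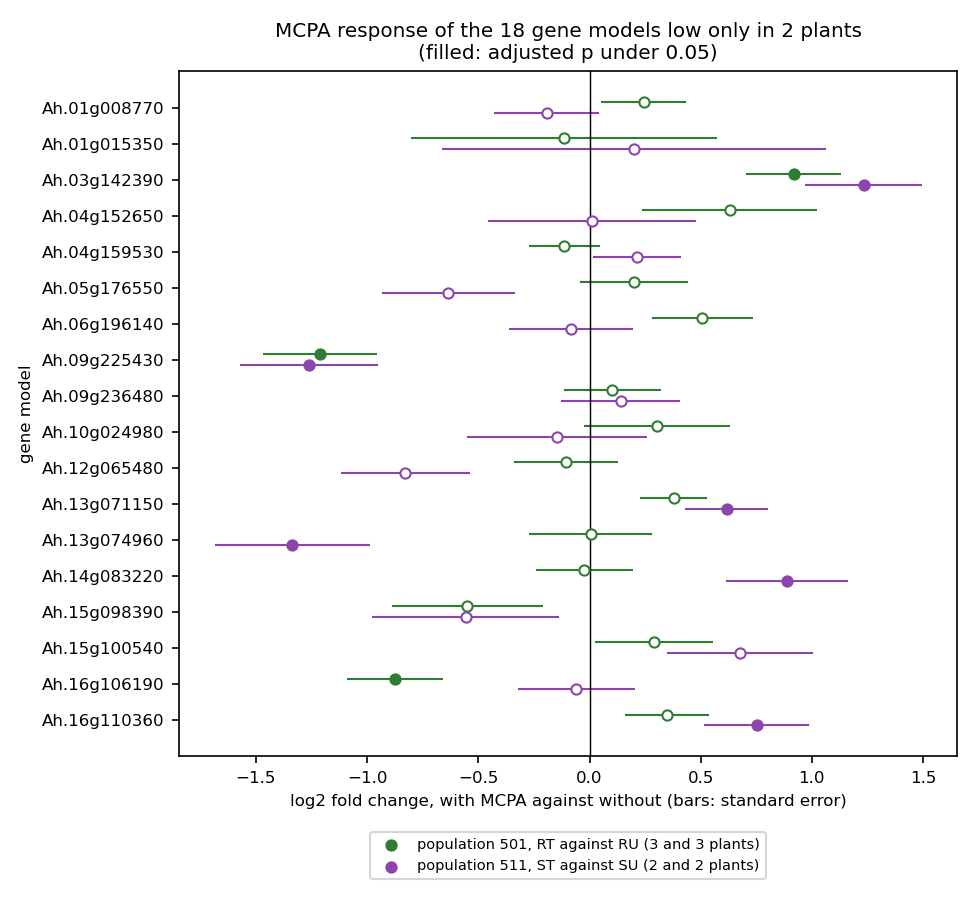
Log2 fold change with MCPA against without (x axis) of the 18 gene models low only in the 2 plants (y axis), over the other 10 plants. Bars are standard errors computed back from the fold change and the F statistic of the test. Green points are population 501 (3 and 3 plants), purple points population 511 (2 and 2 plants), and filled points passed edgeR's quasi-likelihood test at 0.05. Ah.03g142390 and Ah.09g225430 are filled in both populations, on opposite sides of 0.

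A difference between the populations in these responses was not detected for any member. The interaction gave an adjusted p of 0.285 or more by edgeR, and DESeq2 was not run on it. At an unadjusted p under 0.05 were 3 of the 18, with the share over all gene models not counted. The largest estimate was that of Ah.13g074960, 1.34 on the log2 scale (SE 0.44, edgeR adjusted p = 0.285). Over all gene models tested 0.311% passed the interaction without a fold limit.

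No low member passed the test between the populations. In the treated contrast (RT and ST) 0.348% of the gene models were called and 0.72% passed without the fold limit, in the untreated contrast (RU and SU) 0.342% and 0.951%, and none of the 18 in either by edgeR. DESeq2 with the fold limit also called none. The share of all gene models called moved with single plants, from 57 gene models to 35 without RT S11 and to 86 without ST S112 in the treated contrast, and from 56 to 32 without RU S18 or SU S14 in the untreated one. The share of all gene models at an unadjusted p under 0.05 was not counted here either. At that limit edgeR gave 1 member in the treated contrast, Ah.13g074960, 2.29-fold higher in RT (adjusted p = 0.158). It gave 3 in the untreated contrast, of which Ah.14g083220 had the smallest adjusted p, 0.187, and was 1.82-fold higher in RU. Median absolute log2 fold changes of the 18 were 0.29 and 0.31 in the 2 contrasts, against 0.21 and 0.20 over all gene models. No set of gene models with equally few reads was compared here either, so nothing is read from this difference.

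The same rule was put to the second count table, in which the reads were aligned to a de novo transcriptome of population 511. That transcriptome was built from long reads of mixed sprayed and unsprayed leaf, and which plants gave them is not stated in the sources used here. Open reading frames of 1 transcript held identical counts, so transcripts were counted once. Of 37054 transcripts with a count, 3 were high only in ST S13 and SU S116 and 34 were low only in them. High members made up 8.11% there, against 70.5% in the reference-based table, so most members were low there and most were high in the first table. The tables differ in the target sequences, the aligner and the unit counted, and whether the counting step differed is not known. The part of each in the difference was not tested.

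The 3 high transcripts had little in the other 10 plants. Transcript 354993 had 11.4 CPM in ST S13 and 16.4 CPM in SU S116 and at most 0.0808 CPM elsewhere. Transcripts 11900 (2.01 and 2.07 CPM) and 29186 (2.26 and 2.11 CPM) were close to the limit. The 34 low transcripts had means of 2.87 to 11.7 CPM over the other 10 (median 6.18). The highest mean was that of transcript 8956, at 9.59 to 15.6 CPM in the 10 and 0.0490 and 0.0900 CPM in the 2 plants. Which of the 61 gene models these transcripts match was not analysed here.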

How the data were processed

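Reads of 12 leaf libraries were counted by the authors in 2 ways, and the deposited values are raw counts with no normalization. For the first table the authors trimmed reads with fastp and aligned them with STAR to the smooth pigweed genome, with counts given per gene model, and no source used here names the counting tool. For the second they used Bowtie 2 and featureCounts on a de novo transcriptome. How strand and reads with several hits were handled is not stated, so counts of near-identical or overlapping gene models are uncertain.

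Here, counts were scaled by TMM and read as CPM in R 4.3.3 with edgeR 4.0.16. The members and lists were chosen with earlier results of these data known. Contrasts were fitted on 10 libraries, without ST S13 and SU S116, with filterByExpr (minimum count 10, minimum total 15), 1 mean per group, robust glmQLFit, glmQLFTest and Benjamini-Hochberg adjustment over all gene models. DESeq2 (1.42.0), the study's tool, served as an alternative, beside other limits, other scaling and leaving out plants. Bounds on folds cover counting error only. The calculations were tested on simulated data.

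Named by rule were the 8 members of each kind with the highest geometric mean CPM, adjacent members and those in the longest runs, up to 3 members with an adjusted p under 0.05 in each direction of a contrast, and the 2 gene models on each side of every limit. Other names were added after their values were seen. Gene groups and leaf markers were not examined, because the files pair no names with identifiers.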

Additional observations from a re-analysis of the deposited data

How the results depend on the processing

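The number of members followed the limits more than the scaling. RLE size factors, or TMM factors computed after filtering, gave 43 high and 18 low members, all of them the same. Without normalization factors there were 45 high members, including all 43, and 9 low, of which 8 were among the 18, and the median level of the high members averaged over the 2 plants was 6.54 CPM in place of 5.52 CPM. With a limit of 5 CPM there were 19 high and 3 low, with 1 CPM 63 and 40, with 0.2 CPM on the low side 49 and 33, and with a count of 0 on the low side 31 and 2. The de novo table gave 3 and 34, so that low members were the more numerous there. Leaving out each plant in turn gave 43 to 56 high and 18 to 37 low members. Adjacent pairs of the same direction numbered 2 instead of 1 within 2 places, and the opposite pair was found under both definitions of a neighbour.

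No low member was called in the 4 contrasts with RLE, no filter, DESeq2 or all 12 libraries. Without the fold limit there were 3 in RT against RU and 6 in ST against SU, and leaving out plants gave 0 to 1 in ST against SU and 0 in the others. Over all gene models the treated contrast called 57, and 142 with DESeq2, 30 with all 12 libraries and 35 to 86 without single plants. The untreated contrast called 56, and 194, 23 and 32 to 51 under the same alternatives. RT against RU called 1085 and ST against SU 669, and 7347 and 3749 without the fold limit. The calls of Ah.16g110360 and Ah.14g083220 in ST against SU were also lost without a filter, and that of Ah.16g110360 with RLE. The cause was not tested. The 9 fold changes of single low members kept their sign under the alternatives run. No paired analysis was possible because each library is a separate plant and the plant labels do not pair plants between groups. A count of 0 in 2 libraries allows a level up to 0.0480 CPM, so low members cannot be called absent below that level.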

Other observations

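Among the other 10 plants, some gene models separated the populations. They were above 2 CPM in all plants of one population and below 0.1 CPM in all plants of the other. This set, chosen after its values were seen, numbered 5. None could be a member, because the rule asks for the same state in all of the other 10 plants. At 2 of the 5 gene models ST S13 and SU S116 were like the other plants of population 511. Ah.15g099810 had no count in any plant of 511, and Ah.02g129290 had 6.15 CPM in ST S13 and 5.89 CPM in SU S116. At the other 3 both plants were far below the other plants of 511, and at Ah.01g022540 alone both were within the range of population 501. Ah.12g058030 had 0.197 CPM in ST S13 and no count in SU S116, and at most 0.0396 CPM in 501, against 3.14 to 17.7 CPM in the 4 other plants of 511. Ah.01g022540 had no count in either plant, against 5.33 to 15.3 CPM. Its neighbour Ah.01g022530 had 0.0658 and 0.499 CPM, both above the 0.0396 CPM of the highest plant of 501, against 4.79 to 132 CPM.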
